A study of Mus musculus with 24 samples.

Results

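The genes described here are 10 that are known either as transcriptional targets of canonical Wnt signalling or as early genes of the primitive streak and mesendoderm: T, Axin2, Sp5, Cdx1, Cdx2, Lef1, Nkd1, Wnt3, Mixl1 and Eomes. They were taken by symbol, through their Ensembl identifiers in GENCODE M21, and are 10 of the 48985 genes in the count table. RNA was measured in 24 libraries of F121/9 cells, a female mouse embryonic stem cell line that is an F1 hybrid of the strains 129/Sv and CAST/EiJ. The study asked whether gene expression changed in clones carrying 1 of the 5 recombinations i7, i10, i12, d3 and d6. Each recombination had a parental line, whose genotype the labels give as control, and recombined clones: clone 10 for i12, clone 18 for i10, clones 7 and 12 for i7, clone 16 for d6, and clones 12 and 21 for d3. Every recombined group is therefore 1 clone, and each of the 12 groups has 2 libraries, given as biological duplicates. All groups, parental lines included, were grown in serum-free medium with leukemia inhibitory factor, 1 µM of the MEK inhibitor PD0325901 and 3 µM of the GSK-3 inhibitor CHIR99021.

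In canonical Wnt signalling, a secreted Wnt ligand binds a Frizzled receptor and an LRP5 or LRP6 co-receptor, which keeps a destruction complex of Axin, APC and GSK-3 from marking beta-catenin for degradation. Beta-catenin then enters the nucleus and binds TCF and LEF proteins at target genes. CHIR99021 inhibits GSK-3 directly, so the pathway is held active in this medium without added ligand, and together with the MEK inhibitor it keeps mouse embryonic stem cells in a naive state. In the embryo the same pathway induces T and other primitive streak genes as mesoderm and endoderm form.

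TCF and LEF proteins bind DNA at a core of CTTTGA or CTTTGT, with CTTTGATC as a fuller form. These letters were searched on both strands in windows of 300 bases, from 250 bases before to 50 bases after an annotated start, taken from RefSeq on GRCm38.p6. Of the 10 genes, 8 had such an entry, with 11 windows in all, and 4 of the windows held a core. The part before the start is printed for Sp5 and Lef1, which had the most cores, for T, which had 1, and for Axin2, which had none. They are shown because these 4 genes were called together in the clone comparison described below. Capitals mark the cores on either strand and, where present, the fuller form.
Sp5, chr2:70474673-70474922, plus strand: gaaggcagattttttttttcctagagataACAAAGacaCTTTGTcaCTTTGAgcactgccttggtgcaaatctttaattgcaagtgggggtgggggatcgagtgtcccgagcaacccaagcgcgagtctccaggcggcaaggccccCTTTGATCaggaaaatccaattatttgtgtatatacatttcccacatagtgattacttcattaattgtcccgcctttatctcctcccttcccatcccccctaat
Lef1, chr3:131156044-131156293, plus strand: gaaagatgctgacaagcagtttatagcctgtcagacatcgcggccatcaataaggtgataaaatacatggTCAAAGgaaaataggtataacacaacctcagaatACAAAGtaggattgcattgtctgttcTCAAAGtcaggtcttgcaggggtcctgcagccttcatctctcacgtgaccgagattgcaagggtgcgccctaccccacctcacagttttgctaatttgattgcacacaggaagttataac
T, chr17:8434173-8434422, plus strand: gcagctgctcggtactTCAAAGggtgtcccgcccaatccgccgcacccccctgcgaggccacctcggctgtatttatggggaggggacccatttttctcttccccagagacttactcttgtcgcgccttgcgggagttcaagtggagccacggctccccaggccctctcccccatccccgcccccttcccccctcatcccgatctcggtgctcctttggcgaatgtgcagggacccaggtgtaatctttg
Axin2, chr11:108920099-108920348, plus strand: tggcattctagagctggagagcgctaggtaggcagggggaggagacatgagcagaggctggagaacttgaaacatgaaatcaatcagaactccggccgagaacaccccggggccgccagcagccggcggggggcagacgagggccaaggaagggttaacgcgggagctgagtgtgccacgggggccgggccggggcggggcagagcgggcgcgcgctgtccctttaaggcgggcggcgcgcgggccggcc
The Sp5 window held 5 cores, the farthest beginning 221 bases and the nearest printed one 104 bases upstream of the start, and the fifth beginning at base 42 after it. The core at 104 bases upstream is part of a CTTTGATC match. The Lef1 window belongs to an internal start and held 3 cores, while the other 3 Lef1 windows held none. The single T core began 234 bases upstream. Wnt3 had 1 core, at base 19 after its start, and the windows of Cdx2, Nkd1 and Eomes had none. The only Nkd1 window, 88527383 to 88527682, belongs to an internal start, and the gene's first base, 88521354, was not covered. Among all 32851 RefSeq windows of this length, 31.2% held CTTTGA or CTTTGT, 0.938% held CTTTGATC, 1.14% held at least 3 cores and 0.0365% held at least 5. A match is only a description of the letters.

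Total counts per library ran from 3286819 in the shallowest i10 library to 15581094 in the deepest d3 library, and d3, d6 and i7 libraries were deeper than i12 and i10 libraries in general. All 14 markers of embryonic stem cells were detected in each library, with a summed level of 7109 to 9783 CPM (counts scaled by the effective library size). Markers of other cell types were much lower: 39.3 to 255 CPM for formative epiblast, 197 to 458 for primitive endoderm, 188 to 316 for trophoblast, 70.9 to 146 for neural cells and 4.53 to 29.7 for fibroblasts. The primitive endoderm and trophoblast sums came mostly from Lama1, Tfap2c and Tead4, which are not specific to those lineages. The endoderm regulator Gata6 reached at most 3 counts in any library and Sox17 at most 5, and Foxa2 had no count in 22 of the 24 libraries. Libraries with the same replicate number deviated together within a recombination, and the difference between replicates was large. Over all genes, the differences between replicate 2 and replicate 1 correlated with r of 0.36 to 0.69 between groups of the same recombination (9 pairs) and of -0.21 to 0.60 between groups of different recombinations (57 pairs). The shared deviation was not confined to a recombination. Groups of d3 and d6 gave r of 0.40 to 0.60, and groups of i12 and i10 gave 0.50 to 0.58. Groups of i7 with those of d3 or d6 gave -0.21 to 0.10. The labels do not say what the replicate number stands for, nor how the duplicates were separated, so p-values measure the spread between these libraries. Comparisons were therefore fitted without and with a replicate term for each recombination, called the replicate block.

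All 10 genes were read at low to moderate levels in these cells. Per kilobase of exon, the median level over the 24 libraries was highest for Cdx1, a caudal-type homeobox factor, at 7.44 CPM per kb, followed by Axin2 at 5.58 and T at 5.15. Sp5, a zinc-finger factor, had 2.93 CPM per kb and Lef1, a partner of beta-catenin on DNA, had 1.71. The remaining medians were 0.775 CPM per kb for Eomes, 0.404 for Mixl1, 0.373 for Cdx2, 0.242 for Nkd1 and 0.0446 for Wnt3. These levels are sums of the counts given to each allele, and how reads without an informative variant were treated is not known. The order between genes may depend on that treatment, whose effect was not tested. Wnt3, the ligand of the group, had 0 to 6 counts per library and 35 counts in all, with no count in 9 libraries. It was the only gene of the 10 that failed the filter on low counts, so 9 were tested. The spread over libraries was 9.27 CPM per kb for Cdx1, 5.64 for T and 2.50 for Axin2 (SD, n = 24), and the order of these 3 genes depended on the line. In d3 parental the means were 28.5 CPM per kb for Cdx1, 18.3 for T and 7.78 for Axin2. In i12 parental they were 2.25, 6.52 and 4.23. In RNA from a whole culture, fewer cells that express a gene and less RNA per cell cannot be told apart.

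**Figure D1:**
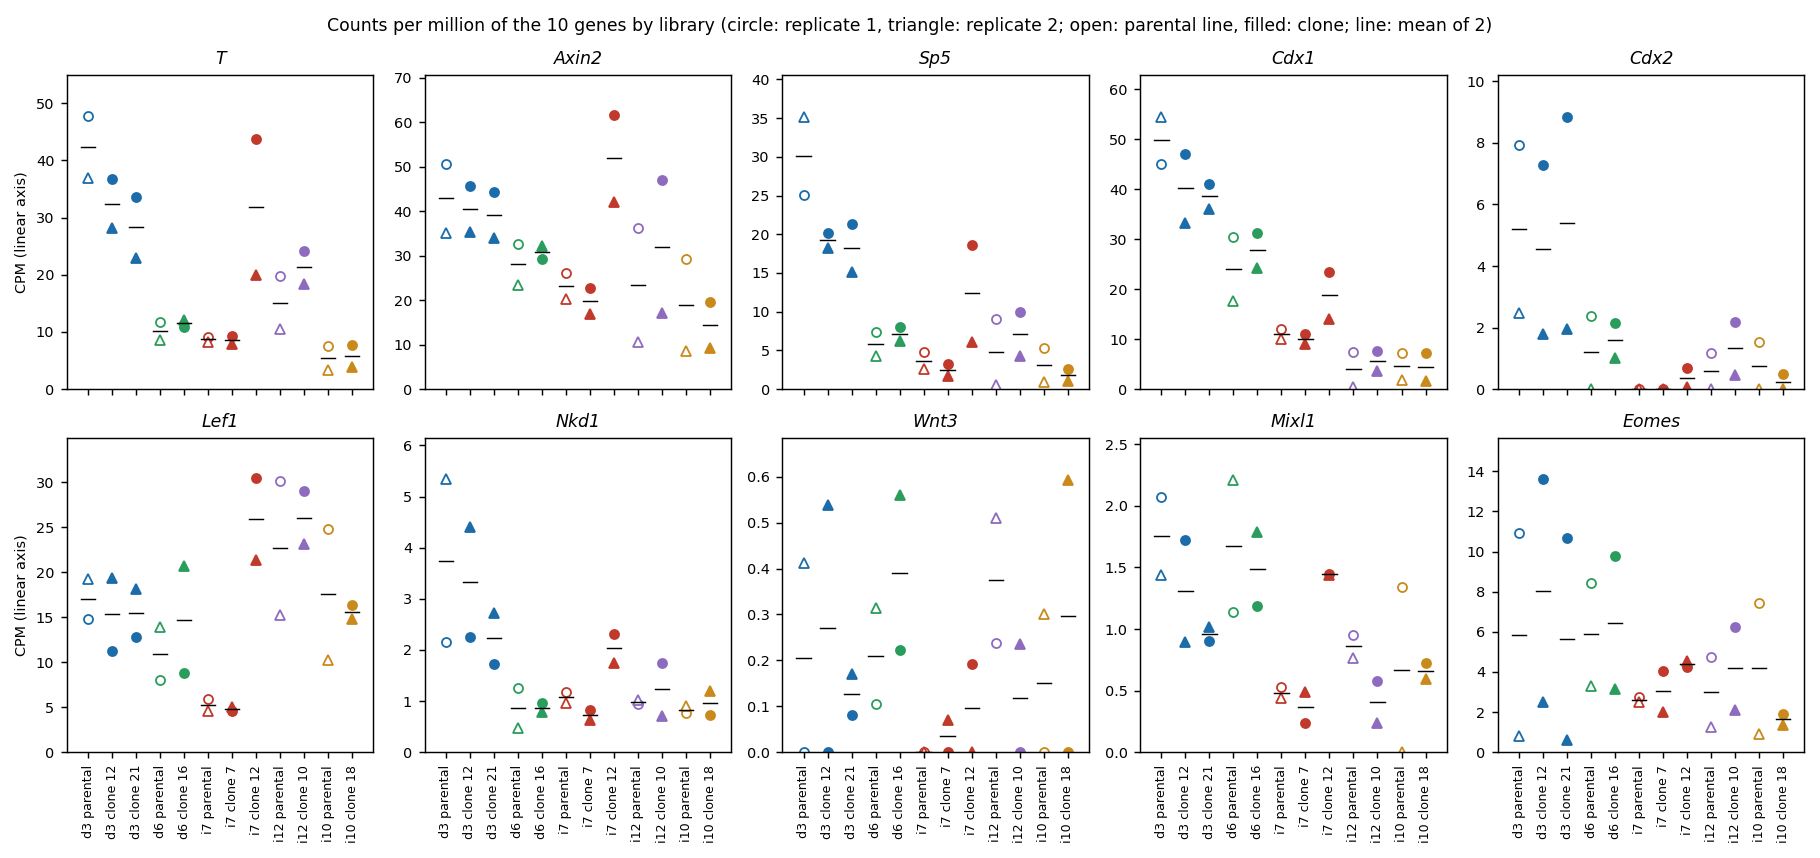
Level in CPM (linear axes, each starting at 0) of the 10 genes in the 24 libraries. Circles are replicate 1 and triangles replicate 2, open symbols parental lines and filled symbols clones, colours mark the recombination and each line is the mean of 2 libraries. The means of T, Sp5, Cdx1, Cdx2 and Nkd1 were highest in a d3 line, and i7 clone 12 lay above i7 parental and i7 clone 7 for T, Axin2, Sp5, Cdx1, Lef1, Nkd1 and Mixl1.

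T, also called brachyury, is a T-box factor of the primitive streak and a direct Wnt target (chromosome 17, 8434423 to 8442496, plus strand, GRCm38). In replicates 1 and 2, T was at 47.8 and 37.0 CPM in d3 parental, with 36.7 and 28.1 for its clone 12 and 33.6 and 23.0 for its clone 21. It was at 11.8 and 8.51 CPM in d6 parental, 10.9 and 12.1 in d6 clone 16, 9.20 and 8.31 in i7 parental, 9.24 and 7.97 in i7 clone 7, and 43.7 and 19.9 in i7 clone 12. In the shallower lines it was at 19.8 and 10.5 CPM in i12 parental, 24.2 and 18.4 in i12 clone 10, 7.63 and 3.32 in i10 parental, and 7.74 and 3.95 in i10 clone 18. The d3 libraries thus lay above those of every other parental line, and i7 clone 12 was the only other group whose mean, 31.8 ± 16.9 CPM (SD, n = 2), reached the d3 range.

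Sp5 is a Wnt target whose protein acts at other Wnt target genes (chromosome 2, 70474923 to 70477729, plus strand). Its libraries gave 25.1 and 35.2 CPM in d3 parental, with 20.2 and 18.2 for its clone 12 and 21.3 and 15.1 for its clone 21. Outside d3 they gave 7.39 and 4.25 CPM in d6 parental, 8.0 and 6.16 in d6 clone 16, 4.73 and 2.65 in i7 parental, 3.20 and 1.75 in i7 clone 7, and 18.6 and 6.14 in i7 clone 12. The lowest values were in replicate 2 of i12 parental, at 0.510 against 9.04 CPM in replicate 1, and of i10 parental, at 0.907 against 5.34. I12 clone 10 had 10.0 and 4.24 CPM and i10 clone 18 had 2.66 and 0.988. Every d3 library was above every library of d6, i12 and i10, while replicates 1 and 2 of i12 and i10 parental differed more than the i12 and i10 means, 4.78 and 3.12 CPM.

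Axin2 encodes a scaffold of the destruction complex that the pathway itself induces, a negative feedback (chromosome 11, 108920349 to 108950783, plus strand). It was read well above 0 in all libraries, from 8.46 to 61.6 CPM. Its levels were 50.6 and 35.1 CPM in d3 parental, 45.6 and 35.3 in d3 clone 12, 44.2 and 34.0 in d3 clone 21, 32.6 and 23.5 in d6 parental, and 29.3 and 32.2 in d6 clone 16. They were 26.1 and 20.3 CPM in i7 parental, 22.8 and 16.8 in i7 clone 7, and 61.6 and 42.1 in i7 clone 12. For i12 and i10 they were 36.2 and 10.5 CPM in i12 parental, 47.0 and 17.0 in i12 clone 10, 29.2 and 8.46 in i10 parental, and 19.6 and 9.28 in i10 clone 18. Nkd1, another induced feedback inhibitor, which binds Dishevelled (chromosome 8, 88521354 to 88594884, plus strand), had only 3 to 52 counts per library. It reached 2.15 and 5.35 CPM in d3 parental and 2.32 and 1.74 in i7 clone 12, against 1.18 and 0.973 in i7 parental.

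Cdx1 and Cdx2 are related homeobox factors of the posterior body, and Cdx1 is a known Wnt target (chromosome 18, 61018862 to 61036199, minus strand; Cdx2 is on chromosome 5, 147300805 to 147307270, minus strand). Cdx1 was at 45.1 and 54.5 CPM in d3 parental, 47.0 and 33.3 in d3 clone 12, 41.1 and 36 in d3 clone 21, 30.5 and 17.6 in d6 parental and 31.3 and 24.3 in d6 clone 16. It was at 12.0 and 9.99 CPM in i7 parental, 11.1 and 9.09 in i7 clone 7 and 23.4 and 14.1 in i7 clone 12. In i12 and i10 replicate 1 of all 4 groups lay between 7.25 and 7.72 CPM, and replicate 2 between 0.510 and 3.54. Every Cdx1 library of i12 and i10 was below every library of i7, and every d3 library was above all others, while i7 clone 12 overlapped the d6 libraries. Cdx2, the lower of the pair per kilobase, had no count in 8 of 24 libraries, among them all 4 libraries of i7 parental and i7 clone 7. It was highest in replicate 1 of the d3 lines, at 7.94, 7.28 and 8.85 CPM, where replicate 2 had 2.47, 1.80 and 1.96.

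Lef1 followed another order (chromosome 3, 131110471 to 131224356, plus strand). It was lowest in i7 parental, at 5.91 and 4.60 CPM, and i7 clone 7, at 4.62 and 5.04, and highest in i12 parental, at 30.2 and 15.3, i12 clone 10, at 29.0 and 23.1, and i7 clone 12, at 30.5 and 21.4. Between them lay d3 parental at 14.8 and 19.3 CPM, d3 clone 12 at 11.3 and 19.4, d3 clone 21 at 12.8 and 18.1, d6 parental at 8.01 and 13.9, and d6 clone 16 at 8.81 and 20.7. I10 parental had 24.8 and 10.3 CPM and i10 clone 18 had 16.4 and 14.8. The gene Gm43352 overlaps the start of Lef1 on the other strand and had 8 to 77 counts per library. The libraries were made with a strand-marking kit, but whether the counting used strand is not given in the sources used here, so reads of Lef1 and Gm43352 may not have been kept apart.

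Eomes, a T-box factor of the streak and definitive endoderm (chromosome 9, 118478212 to 118486132, plus strand), differed more between replicates than between lines. It was at 10.9 and 0.823 CPM in d3 parental, 13.6 and 2.51 in d3 clone 12, 10.7 and 0.596 in d3 clone 21, 8.43 and 3.31 in d6 parental and 9.78 and 3.13 in d6 clone 16. In i7 it stayed between 2.03 and 4.55 CPM in all 6 libraries. Replicate 1 against replicate 2 gave 4.76 and 1.28 CPM in i12 parental, 6.26 and 2.12 in i12 clone 10, 7.44 and 0.907 in i10 parental, and 1.93 and 1.38 in i10 clone 18. Mixl1, a homeobox gene of the streak (chromosome 1, 180693043 to 180697034, minus strand), had 0 to 26 counts and at most 2.21 CPM. Wnt3, the ligand that starts streak formation in the embryo (chromosome 11, 103774150 to 103817957, plus strand), did not exceed 0.593 CPM.

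The parental lines carry no recombination, and among them T, Cdx1, Sp5 and Nkd1 differed, with d3 the highest for each. By the quasi-likelihood test of edgeR, with p-values adjusted over 16253 genes by Benjamini-Hochberg, the joint test over the 5 lines called these 4 of the 9 genes, with adjusted p = 0.00220 for T, 0.00845 for Cdx1, 0.0266 for Sp5 and 0.0486 for Nkd1. The same test called 6.64% of all genes. Lef1 (adjusted p = 0.0568), Cdx2 (0.115), Mixl1 (0.241), Axin2 (0.466) and Eomes (0.866) were not called. Without replicate 2 of d3 parental, or without either replicate of i7 parental, 2 genes remained called, Cdx1 and T.

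By pairs of lines, which share lines with each other, 9 of 90 tests of a gene were called. T averaged 42.4 ± 7.60 CPM in d3 parental (SD, n = 2, as for all groups) and was higher there than in each other line, on the log2 scale by 2.06 (SE 0.409) against d6, 2.28 (SE 0.411) against i7, 2.90 (SE 0.447) against i10 and 1.49 (SE 0.408) against i12. The adjusted p were 0.0173, 0.0119, 0.00228 and 0.0452. Cdx1 was higher in d3 than in i10 by 3.36 (SE 0.686, adjusted p = 0.0132) and than in i12 by 3.63 (SE 0.706, adjusted p = 0.00792). Sp5 was higher in d3 than in i7 by 3.05 (SE 0.770, adjusted p = 0.0408) and than in i10 by 3.16 (SE 0.814, adjusted p = 0.0427). Those pairs called 1.82% (d3 and d6), 3.73% (d3 and i7), 3.35% (d3 and i10) and 4.96% (d3 and i12) of all genes. Lef1 was lower in i7 than in i12 by 2.12 (the log2 change of i7 against i12 was -2.12, SE 0.482, adjusted p = 0.0292), a pair in which 2.20% of all genes were called. No gene of the set was called in the other 5 pairs, which called 1.13% (d6 and i7), 0% (d6 and i10), 0.172% (d6 and i12), 1.13% (i7 and i10) and 0% (i10 and i12) of all genes. The number of calls fell to 4 without replicate 2 of d3 parental or either replicate of i7 parental, and rose to 14 without replicate 1 of d3 parental. For T the order of the means was d3, i12, d6, i7 and i10, and the last 4 were not separated by any call.

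Across these lines, the joint test called 6.64% of all genes. Of the markers that passed the filter it called 2 of 14 for embryonic stem cells (Nanog and Tbx3), 1 of 5 formative and 1 of 6 primitive endoderm. It called 0 of 5 trophoblast, 0 of 4 neural and 2 of 3 fibroblast markers. The part of these markers in the differences of T, Cdx1, Sp5 and Nkd1 was not tested. Depth differed too, from 3286819 to 5189267 counts for i10 libraries and 3829089 to 6920899 for i12, up to 7358368 to 13853975 for i7 and 10383315 to 15581094 for d3.

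None of the 9 genes was called in a clone against its own parental line without the replicate block. The edgeR test gave 0 calls in each of the 7 comparisons, and at an unadjusted p under 0.05 it gave 5 genes in i7 clone 12 and 0 in the other 6. Of all 16253 genes, 1006 were under that threshold in i7 clone 12 and 48 to 713 in the other clones. DESeq2 called 2, Lef1 and T, in i7 clone 12 and 0 in the others, and its share over all genes is not reported here. Over all genes the edgeR test called 0.0246% for clone 12 of i7, 0.0123% for clone 16 of d6, 0.0123% and 0.0554% for clones 12 and 21 of d3, and 0% for i10 clone 18, i12 clone 10 and i7 clone 7. The median log2 change of the 9 genes was 0.50 for i12 clone 10, 0.17 for d6 clone 16, -0.12 for i7 clone 7, -0.19 and -0.37 for d3 clones 12 and 21, and -0.22 for i10 clone 18, beside medians of all genes within 0.01 of 0. Neither the mean effect over recombinations nor the test that clone effects differ called any of the 9 (none at an unadjusted p under 0.05, and none by DESeq2), and each called 0.0123% of all genes. Clones 21 and 12 of d3 did not differ in any of the 9 genes either, in a comparison that called 0.0492% of all genes (none of the 9 at an unadjusted p under 0.05, and none by DESeq2). With the block none of the 9 was called in these tests or in the 6 clones other than i7 clone 12. At an unadjusted p under 0.05, differing clone effects gave 4 (T, Lef1, Sp5 and Axin2) and the mean effect 1 (Lef1). D3 clone 21 gave 3 (T, Sp5 and Nkd1), with all 9 changes negative. D3 clone 12, i12 clone 10 and i10 clone 18 gave 1 each, and d6 clone 16 and i7 clone 7 gave 0. The shares of all genes under that threshold with the block are not reported here.

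**Figure D2:**
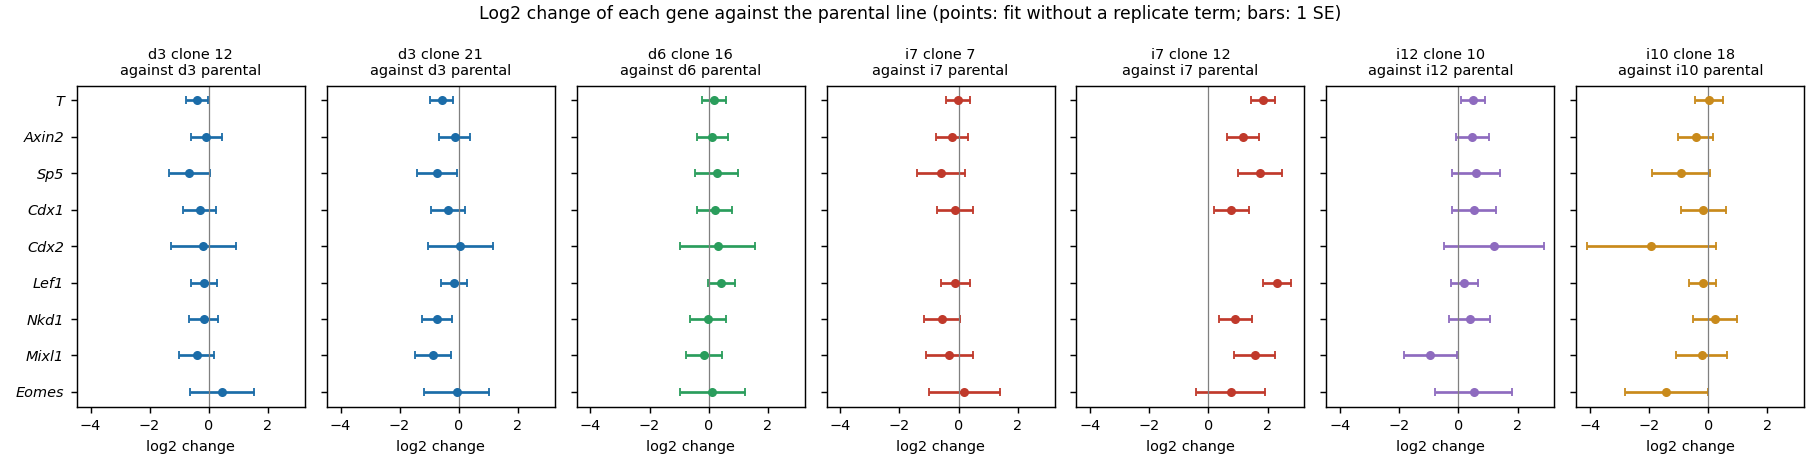
Log2 change of 9 genes in each of the 7 clones against its parental line, from the fit without a replicate term. Points are estimates and bars 1 SE, and Cdx2 is not drawn for i7, where all parental libraries had no count. In i7 clone 12 the 8 drawn genes lie to the right of 0, between 0.75 and 2.31, while in the other clones the median of the 9 changes lies between -0.37 and 0.50.

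In i7 clone 12 the Wnt targets T, Axin2, Sp5 and Lef1 were higher than in the i7 parental line once the replicate block was fitted. Lef1 was at 30.5 and 21.4 CPM in clone 12 against 5.91 and 4.60 in parental, T at 43.7 and 19.9 against 9.20 and 8.31, Axin2 at 61.6 and 42.1 against 26.1 and 20.3, and Sp5 at 18.6 and 6.14 against 4.73 and 2.65. For each of these 4 genes both clone libraries lay above both parental libraries. With the replicate block, the same edgeR test gave log2 changes of 2.29 for Lef1 (SE 0.246, adjusted p = 6.96e-05), 1.76 for T (SE 0.225, adjusted p = 3.28e-04), 1.14 for Axin2 (SE 0.163, adjusted p = 6.58e-04) and 1.63 for Sp5 (SE 0.338, adjusted p = 0.00888). Without the block the estimates were close, 2.31 (SE 0.473) for Lef1, 1.86 (SE 0.408) for T, 1.16 (SE 0.541) for Axin2 and 1.75 (SE 0.754) for Sp5, and none passed, with adjusted p = 0.143, 0.185, 0.795 and 0.746. The blocked fit called 6.27% of all genes, and 3.52% as higher.

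The other 5 genes were not called with or without the block. Without the block the log2 changes were 1.56 for Mixl1, 0.91 for Nkd1, 0.77 for Cdx1 and 0.75 for Eomes. Cdx2 had 8 counts in i7 clone 12, 7 of them in replicate 1, and none in i7 parental. Set against a floor of 3 counts over the parental group, and with the 8 counts taken as exact, it was 2.14-fold higher. All 9 fitted changes were positive, with a median of 1.56, or 1.16 with Cdx2 set against that floor, beside -0.00 over all genes. In clone 7 of the same recombination T was at 9.24 and 7.97 CPM there, and Lef1 at 4.62 and 5.04.

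Clone 12 set against clone 7 directly, is a comparison that shares the clone 12 libraries with the last. Without the block none of the 9 genes was called, with Lef1 at adjusted p = 0.0576 and T at 0.0872, and 0.0923% of all genes were called. At an unadjusted p under 0.05 there were 6, beside 1347 of all 16253 genes. DESeq2 called 2, Lef1 and T, and its share over all genes is not reported here. With the block 7 were called, all higher in clone 12: Lef1 by 2.37 (adjusted p = 2.50e-05), Axin2 by 1.38 (9.52e-05), T by 1.79 (1.36e-04), Sp5 by 2.21 (9.14e-04), Nkd1 by 1.46 (0.0299), Cdx1 by 0.85 (0.0333) and Mixl1 by 1.86 (0.0464). That fit called 9.76% of all genes, and 4.87% as higher. The fitted changes without the block had a median of 1.88, or 1.48 with Cdx2 set against a floor of 3 counts over clone 7.

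Marker levels were also compared between i7 clone 12 and i7 parental. Summed markers of neural cells were at 102 to 112 CPM against 71.0 to 76.8 in i7 parental, of fibroblasts at 28.6 to 29.7 against 18.9 to 19.4, and of formative epiblast at 76.4 to 99.4 against 59.4 to 69.7. Those of primitive endoderm were lower, at 300 to 346 against 408 to 454 CPM, as were those of trophoblast, at 188 to 190 against 222 to 245. Embryonic stem cell markers overlapped, at 8748 to 9436 against 8749 to 9613 CPM. Apart from the embryonic stem cell list, each difference came mostly from 1 gene, and other members of the list differed in the opposite direction. In the neural sum Tubb3 was at 44.0 CPM on average against 17.6 in parental, while Sox1 was at 0.286 against 0.991. In the fibroblast sum Thy1 was at 24.2 against 15.3 CPM and Col1a1 at 1.16 against 1.56, and in the formative sum Dnmt3b was at 83.8 against 61.9 and Otx2 at 0.259 against 0.615. Of the primitive endoderm list, Lama1 was at 312 against 423 CPM, Dab2 at 3.13 against 1.21 and Gata4 at 3.89 against 2.42. Of the trophoblast list, Tead4 was at 121 against 164 CPM and Krt18 at 4.74 against 2.55. Among these genes only Tubb3 (adjusted p = 0.00166) and Thy1 (0.0319) were called with the replicate block, and none without it. Foxa2, Gata3, Elf5 and Hand1 did not exceed 2 counts in any library, and Dcn had no count in any. The 529 tested genes of chromosome 19 had a median log2 change of 0.50 in clone 12, while the medians of the other chromosomes lay between -0.04 and 0.02. None of the 10 genes is on chromosome 19. The part of these measures in the change of the Wnt targets was not tested.

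Outside the set, other genes of the pathway gave mixed directions in i7 clone 12. The Wnt target Myc averaged 4.59 CPM there against 2.42 in i7 parental, and was not called with or without the replicate block. Without the block no gene of the lists was called. With it, 0 of 5 ligand and secretion genes, 6 of 26 receptors and surface regulators, 2 of 18 genes of the destruction complex and its transducers, 1 of 16 nuclear factors and 2 of 9 other streak genes were called, beside the 6.27% of all genes. Among receptors, the Frizzled gene Fzd10 rose from 39.2 ± 0.922 to 70.5 ± 8.16 CPM (log2 change 0.84, adjusted p = 0.00444), the co-receptor gene Lrp5 from 53.7 ± 9.67 to 95 ± 12.1 (0.83, adjusted p = 0.00445) and Rspo1, which encodes a secreted enhancer of Wnt signalling, from 0.154 ± 0.0322 to 1.06 ± 0.00248 (2.64, adjusted p = 0.0215). That parental level of Rspo1 was near the floor: in the same libraries Mixl1 at 0.526 and 0.442 CPM had 4 and 5 counts. The secreted inhibitor gene Sfrp1 fell from 181 ± 10.9 to 108 ± 6.71 CPM (log2 change -0.75, adjusted p = 0.00112), the membrane inhibitor gene Apcdd1 from 32.4 ± 0.689 to 15.8 ± 3.12 (-1.04, adjusted p = 5.55e-04) and Fzd5 from 161 ± 14.4 to 112 ± 6.70 (-0.52, adjusted p = 0.0127).

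In the same blocked fit the streak genes Bmp4 and Nodal, which encode signals of the TGF-beta superfamily, rose, Bmp4 from 27.5 ± 3.55 to 61.8 ± 9.66 CPM (log2 change 1.17, adjusted p = 5.79e-04) and Nodal from 49.7 ± 3.02 to 73.1 ± 2.27 (0.56, adjusted p = 0.0416). Btrc, Tnks2, Tcf7l2 and Lrp5 all lie on chromosome 19, and their changes of 0.46, 0.49, 0.83 and 0.83 stand beside that chromosome's median of 0.50. Btrc encodes the ubiquitin ligase subunit that recognises beta-catenin, Tnks2 a tankyrase that marks Axin for degradation, and Tcf7l2 a TCF factor. Thus 4 of the 9 genes called outside the target set, Bmp4 and Nodal left aside, come from 1 chromosome.

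Between parental lines the same lists gave 0 of 5 ligand genes, 6 of 26 receptors, 0 of 18 destruction complex genes, 2 of 16 nuclear factors (Pygo1 and Tcf7l1) and 1 of 9 other streak genes (Gsc), beside 6.64% of all genes. Sfrp1 was lowest in d3 parental, at 106 CPM on average, and was at 303 in d6, 181 in i7, 334 in i12 and 325 in i10 (adjusted p = 1.76e-04). Tcf7l1, a TCF factor that mostly represses, was at 134 CPM in d3, 127 in d6, 95.9 in i7, 58.1 in i12 and 68.9 in i10 (adjusted p = 0.0280). Fzd10 (adjusted p = 0.0289) was lowest in i7 at 39.2 CPM and highest in d6 at 84.3, and Lrp5 (0.0419) was at 41.6 in d3 and 88.5 in i10.

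Most genes of the set differed by the replicate number. In the fit with the replicate block, 8 of the 9 genes were called for it, all but Mixl1 (adjusted p = 0.322), where 46.2% of all genes were called. Adjusted p were 7.35e-06 for Eomes, 9.04e-06 for Axin2, 8.48e-04 for Cdx2, 0.00116 for Cdx1, 0.00136 for Sp5, 0.00183 for Lef1, 0.00685 for T and 0.0296 for Nkd1. The size and sign depended on the recombination. Eomes was lower in replicate 2 of d3 by 3.21 (a log2 difference of -3.21, SE 0.318, adjusted p = 2.53e-06), and all 3 replicate 2 libraries of d3 lay below all 3 of replicate 1. In i7 its difference was -0.32 (SE 0.317, adjusted p = 0.682).

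**Figure D3:**
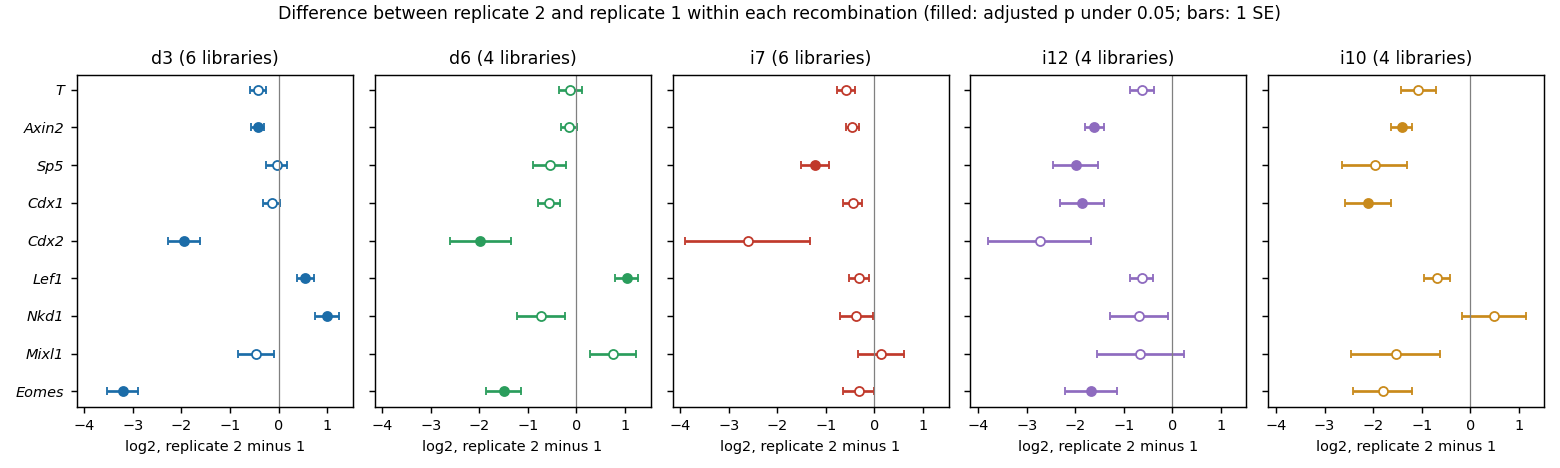
Log2 difference of replicate 2 minus replicate 1 within each recombination, for 9 genes, from the fit with the replicate block. Points are estimates, filled where the adjusted p is under 0.05, bars are 1 SE, and Cdx2 is not drawn for i10, where replicate 2 had no count. Most points lie left of 0, with Lef1 to the right in d3 and d6 and to the left in i7, i12 and i10.

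Within d3, 5 genes were called between replicates: Eomes, Cdx2 (-1.95) and Axin2 (-0.43) were lower in replicate 2, and Nkd1 (1.00) and Lef1 (0.55) higher, in a comparison that called 28.6% of all genes. In d6, Cdx2 (-1.98) and Eomes (-1.50) were lower and Lef1 (1.03) higher, with 19.6% of all genes called. In i12, Axin2 (-1.61), Cdx1 (-1.86), Eomes (-1.68) and Sp5 (-1.99) were lower, with 19.4% of all genes called. Axin2 (-1.41) and Cdx1 (-2.10) were lower in i10, with 17.7% of all genes called, and Sp5 (-1.22) alone in i7, with 4.31%. These are log2 differences of replicate 2 against replicate 1. The i7 libraries gave the fewest calls by replicate number, in the set and over all genes.

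A test of whether the replicate differences themselves differed between recombinations, added after they had been seen, called 6 of the 9 genes, and 24.7% of all genes. Axin2 (adjusted p = 0.00165), Lef1 (0.00283), Eomes (0.00386), Cdx1 (0.0207), Sp5 (0.0239) and Nkd1 (0.0434) were called, and T (0.420), Cdx2 (0.669) and Mixl1 (0.297) were not. Without either replicate of i10 parental the count was 3, Axin2, Eomes and Lef1. For T the log2 difference of replicate 2 against replicate 1 was -0.43 in d3, -0.13 in d6, -0.59 in i7, -0.62 in i12 and -1.07 in i10, none of them called.

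Many genes outside the set differed by replicate too. The lists gave 3 of 5 ligand genes, 13 of 26 receptors, 9 of 18 destruction complex genes, 11 of 16 nuclear factors and 7 of 9 other streak genes, beside 46.2% of all genes. Myc, a growth regulator and Wnt target, had log2 differences of replicate 2 against replicate 1 of -2.19 in d3, -1.52 in d6, -1.12 in i7, -3.28 in i10 and -4.69 in i12. Bmp4 had -1.24 in d3, -0.80 in d6, -0.32 in i7, -2.06 in i10 and -2.59 in i12. The corepressor gene Tle3 went the other way, at 0.60, 1.05, 0.01, 1.06 and 0.78, as did the casein kinase gene Csnk1e, at 0.78, 0.37, 0.17, 1.18 and 1.33. The ligand gene Wnt5b had -1.59, -1.78, -0.06, -1.11 and -0.78. The cyclin gene Ccnd1 had 0.00, -0.34, -0.29, -1.32 and -1.58. In the same order, d3, d6, i7, i10 and i12, the receptor list gave -0.92, -1.23, 0.19, 0.07 and -0.12 for Apcdd1, -0.65, -0.12, -0.19, -0.28 and -0.42 for Fzd5, and -0.22, -0.49, 0.32, -1.50 and -1.42 for Notum, which encodes a secreted enzyme that inactivates Wnt ligands. Btrc had 0.57, 0.35, 0.00, 0.29 and 0.30, and Ctnnbip1, whose protein binds beta-catenin and blocks its contact with TCF, had 0.61, 0.41, 0.11, -0.35 and 0.00. Among the streak genes, Tdgf1, which encodes a co-receptor of Nodal, had 0.68, 0.97, -0.07, 0.89 and 0.51, and Nodal had -0.88, -0.56, 0.04, -0.28 and -0.58. Each gene named here had an adjusted p from 2.55e-07 to 0.00417 for the replicate number, by the same edgeR test. The differences in i7 were the smallest in size for Bmp4, Wnt5b, Tle3, Csnk1e, Btrc, Tdgf1, Nodal and Myc.

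Markers were called for the replicate number too, in a test that called 46.2% of all genes. Of those that passed the filter, 10 of 14 embryonic stem cell, 3 of 5 formative and 3 of 6 primitive endoderm markers were called. So were 3 of 5 trophoblast, 3 of 4 neural and 2 of 3 fibroblast markers. The part of these markers in the replicate differences of the set was not tested.

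The counts of each library come separately for the CAST and the 129S1 allele, which gives a second reading of the same genes. For 6 genes both alleles had a mean of at least 10 counts, the minimum set for this test, while Cdx2, Nkd1, Mixl1 and Wnt3 were too low. In the parental lines Lef1 and T came mostly from the CAST allele, and Axin2 and Eomes more from the 129S1 allele. The log2 ratio of 129S1 to CAST was -2.34 for Lef1 (SE 0.222, adjusted p = 8.25e-09), -1.51 for T (SE 0.136, adjusted p = 3.55e-09), 0.53 for Axin2 (SE 0.0760, adjusted p = 3.61e-06) and 0.95 for Eomes (SE 0.192, adjusted p = 1.92e-04). Cdx1, at -0.33 (adjusted p = 0.119), and Sp5, at 0.29 (adjusted p = 0.180), were not called. A difference between the alleles was called for 69.2% of the 10795 genes tested, whose median ratio was 0.03, so the size says more than the call: 5.72% of them had a ratio at least as far from 0 as Lef1, 11.9% as far as T, 21.9% as far as Eomes and 38.1% as far as Axin2.

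**Figure D4:**
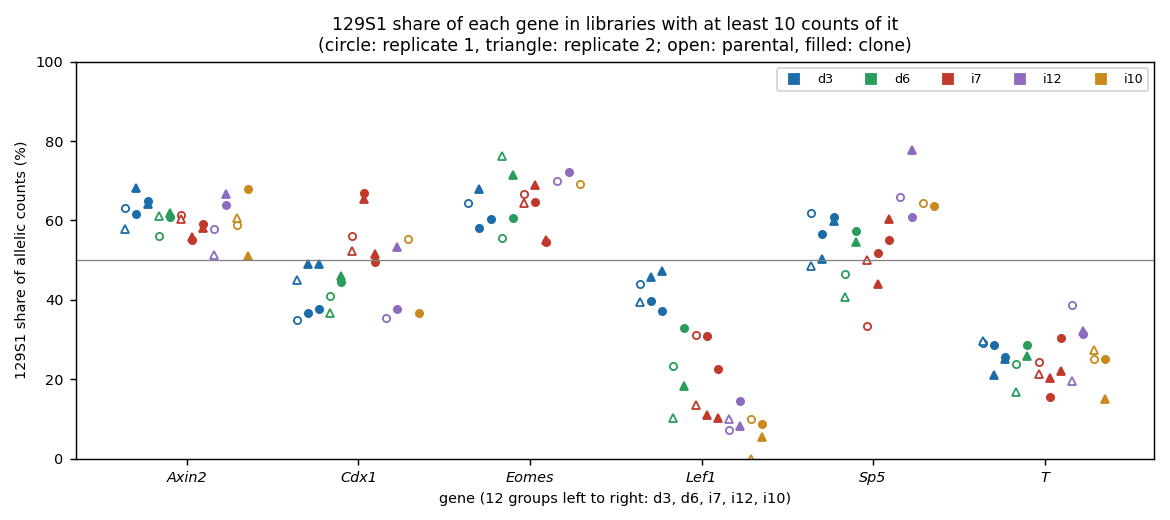
Share of the 129S1 allele in the counts of 6 genes, in percent, for libraries with at least 10 counts of the gene. Circles are replicate 1 and triangles replicate 2, open symbols parental lines and filled symbols clones, colours mark the recombination and the line is at 50%. All plotted Axin2 and Eomes libraries lie above 50% and all plotted T and Lef1 libraries below it, with Lef1 ranging from 0% to 47.2%.

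The shares were on the same side of 50% in each of the 24 libraries for T, Lef1, Axin2 and Eomes. The 129S1 share of T lay between 15.0% and 38.6% in the 24 libraries, with 26.7% over all of them (1187 of 4449 counts, 95% Wilson interval 25.4% to 28.0%). That of Axin2 lay between 51.1% and 68.2%, with 61.1% over all (4316 of 7068, interval 59.9% to 62.2%), and that of Eomes between 54.5% and 88.9%, with 62.7% over all (704 of 1123, interval 59.8% to 65.5%). These intervals cover counting error only. Some Eomes shares rest on few counts: 88.9% was 8 of 9 counts in replicate 2 of i12 clone 10. Replicate 2 of i10 parental had 3 Eomes counts and replicate 2 of i12 parental had 5. How reads without an informative variant were treated, and to which genome reads were aligned for the split, is not given in the sources used here, and its effect on these shares was not tested.

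Lef1 was the gene of the set whose allelic ratio differed among parental lines (adjusted p = 0.0340), in a test that called 1.29% of all genes. Its 129S1 share was 41.7% in d3 parental (153 of 367 counts, 95% Wilson interval 36.8% to 46.8%), 16.4% in d6 parental (27 of 165, 11.5% to 22.8%), 21.6% in i7 parental (21 of 97, 14.6% to 30.8%), 8.02% in i12 parental (15 of 187, 4.92% to 12.8%) and 7.93% in i10 parental (13 of 164, 4.69% to 13.1%). These intervals cover counting error only, and replicates differed by more than some of the lines: the share was 23.4% and 10.2% in replicates 1 and 2 of d6 parental and 31.1% and 13.5% in those of i7 parental. Replicate 2 was also the lower in d6 clone 16 (32.8% and 18.4%), i7 clone 7 (30.8% and 11.1%) and i7 clone 12 (22.5% and 10.3%). It was the higher in d3 clone 12 (39.8% and 45.8%), d3 clone 21 (37.2% and 47.2%) and i12 parental (7.09% and 10.0%), and the lower in the remaining groups. The clones, pooled over replicates, had 6.99% for i10 clone 18, 12.5% for i12 clone 10, 18.0% and 16.8% for i7 clones 7 and 12, 24% for d6 clone 16, and 43.2% and 42.9% for d3 clones 12 and 21. By allele, the 129S1 copy was at 7.07 ± 0.766 CPM in d3 parental and at 1.65 ± 0.322 in d6, 1.23 ± 0.863 in i7, 1.84 ± 0.433 in i12 and 1.24 ± 1.75 in i10 (SD, n = 2). The CAST copy was at 10.0 ± 2.45 CPM in d3 parental, 9.29 ± 4.46 in d6, 4.03 ± 0.0658 in i7, 20.9 ± 10.1 in i12 and 16.3 ± 8.52 in i10. The 129S1 copy was above 6 CPM in both d3 parental libraries and at most 2.48 in those of the other 4 lines, while the libraries of the CAST copy overlapped between d3, d6 and i10. The call was lost without either replicate of d3 parental, either replicate of i12 parental, or replicate 2 of i10 parental.

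No change of the allelic ratio in a clone was called for a gene of the set. There were 0 calls among 42 tests of a gene in a clone by the edgeR test, and 1 at an unadjusted p under 0.05, Sp5 in i7 clone 12 (log2 change of the ratio 0.93, adjusted p = 0.766). In that clone 697 of all 10795 genes were under that threshold. With the replicate block there were 0 calls and 2 at an unadjusted p under 0.05, Sp5 in i7 clone 12 (0.97, adjusted p = 0.412) and Cdx1 in i7 clone 7 (0.73, unadjusted p = 0.0196 and adjusted p = 1.00 by edgeR). The 129S1 share of Cdx1 was 67.0% and 65.4% in i7 clone 7 against 56.0% and 52.2% in i7 parental. With 2 libraries a group, smaller changes of the ratio may go uncalled. The same tests called 0% of all genes for i10 clone 18, 0.00926% for i12 clone 10, 0.00926% and 2.33% for i7 clones 7 and 12, 0.0463% for d6 clone 16, and 0.0463% and 3.41% for d3 clones 12 and 21. The higher Lef1 of i7 clone 12 came from both copies, with the 129S1 copy at 4.53 ± 3.30 against 1.23 ± 0.863 CPM in parental and the CAST copy at 21.4 ± 3.14 against 4.03 ± 0.0658. For T in that clone the 129S1 copy was at 8.82 ± 6.27 against 2.00 ± 0.329 CPM and the CAST copy at 23.0 ± 10.6 against 6.75 ± 0.296.

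The genes whose pattern over the 24 libraries was most like that of each member were ranked by Pearson r of log2 CPM, as a description with no test, since libraries share their line, replicate number and depth. For T they included Sp5 (0.88) and Mylpf (0.86), and T was the only gene with another member of the set in its top 3. Sp5 itself was closest to Srarp (0.96), 2310043M15Rik (0.93) and Ddx20 (0.93), Axin2 to genes that included Rundc1 and 1190002N15Rik (each 0.92), and Cdx1 to Zw10, Gabarapl2 and Zmiz1 (each 0.96). Cdx2 was closest to Errfi1 (0.94), Txlna (0.94) and Wdr45 (0.93), and Eomes to Spin1 (0.89), Tns3 (0.89) and Ppp6r1 (0.88). Lef1 was closest to Gm43352 (0.95), the gene that overlaps its start on the other strand, and then to Prpsap1 (0.81) and Lhfpl2 (0.80). Over the same libraries T correlated with Axin2 at r = 0.84, Cdx2 at 0.73, Cdx1 at 0.66, Lef1 at 0.44 and Eomes at 0.37.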

How the data were processed

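Polyadenylated RNA was sequenced as single-end reads of 75 bp from stranded libraries, per the labels' protocols. The authors deposited raw read counts per gene and allele (129S1 and CAST) for 24 libraries, per the file headers. STAR, SAMtools and mm10 are named in the submitters' processing notes, without their roles. The counter, the annotation, the strand setting and the way reads that cover no variant were handled are not given in the sources used here. All 48 columns of counts belonged to a sample, with 0 columns left over. Of 48985 gene identifiers, 48838 matched GENCODE M21 without the version.

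The 2 alleles' counts were summed and fitted with edgeR 4.0.16 (R 4.3.3, quasi-likelihood test, TMM, filterByExpr), with 12 group means, 16253 genes, a biological coefficient of variation of 0.246 and Benjamini-Hochberg adjustment. A call is an adjusted p under 0.05. Replicate numbers paired libraries within a recombination by their correlated deviations (median r 0.55 within and 0.21 between recombinations), so the fit with the replicate block (coefficient of variation 0.119) is given where it changes a call. Among parental lines of different recombinations the block removes replicate spread that those comparisons carry, and its calls are given only with the alternatives. Allelic ratios were fitted with a coefficient per library and 1 per group for the allele, over 10795 genes whose mean reached 10 counts for each allele. DESeq2 1.42.0, other filters, other scaling, single alleles and leaving out each library were alternatives. Levels are CPM by effective library size, and per kb of M21 exons. The 24 libraries held 3286819 to 15581094 counts, and no 2 libraries agreed within sampling noise (the closest pair had a chi-square per degree of freedom of 2.53). The fits were also run on simulated data, for clone comparisons only without the replicate block, and the outcome is not reported here. Figures and tables were made with Python 3.11.15, pandas 2.3.3 and matplotlib 3.10.9.

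The 10 genes and all lists were chosen with earlier results of these data known. Named from the lists were genes called in a clone comparison and, per list, the 3 with the smallest p among parental lines and for the replicate number, if the mean reached 50 counts. Likeness was ranked over 12774 genes whose mean reached 20 counts, and the top 3 were taken for each member at that level, of which 2 genes are not reported here. The genes of the lists called only with the block were named after their values were seen.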

Additional observations from a re-analysis of the deposited data

Results flagged for a closer look

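The difference between replicate 2 and replicate 1 was not the same in all recombinations for 6 genes, by edgeR's quasi-likelihood test of the difference itself, with Benjamini-Hochberg adjustment. Axin2 (adjusted p = 0.00165) had log2 differences of -0.43 in d3, -1.41 in i10 and -1.61 in i12. Lef1 (adjusted p = 0.00283) was higher in replicate 2 of d3 (0.55) and d6 (1.03), while its values in i7, i12 and i10 were below 0 and not called. Eomes (adjusted p = 0.00386) ran from -3.21 in d3 to -0.32 in i7. Cdx1 (adjusted p = 0.0207) was lower in replicate 2 of i10 (-2.10) and i12 (-1.86), and Sp5 (adjusted p = 0.0239) in i12 (-1.99) and i7 (-1.22), with a difference of -1.97 in i10 that was not called (adjusted p = 0.0520). Nkd1 (adjusted p = 0.0434) was higher in replicate 2 of d3 (1.00), and was called in no other recombination. The test called 24.7% of all genes.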

How the results depend on the processing

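With no replicate block, 0 of 9 genes were called in i7 clone 12 against i7 parental. With the replicate block 4 were called, with no filter on low counts 4, with CAST counts alone 2, with the libraries of the comparison only 1, and with DESeq2 2. Against i7 clone 7 these counts were 7, 4, 2, 2 and 2, and 1 with a mean of at least 50 counts. Of the 5 parental lines' 4 calls, the replicate block made 8 and no filter 7, and leaving out 1 library gave 2 to 4. The 9 calls over pairs of parental lines became 39 with the replicate block, 33 with no filter and 16 with DESeq2, and 4 to 14 without 1 library. Apart from i7 clone 12 with the block, the share of all genes called under these alternatives is not reported here. The block lowered the coefficient of variation over all genes from 0.246 to 0.119. The higher counts are therefore not shown to be particular to the set. The 8 genes called for the replicate number became 5 with a mean of at least 50 counts, a filter that Cdx2, Nkd1, Mixl1 and Eomes do not pass. The 6 genes whose replicate differences differed became 3 to 6, and the 1 gene whose allelic ratio differed among parental lines became 0 to 1, without 1 library. The replicate block changed no other count of calls by over 1.5 times. Leaving out 1 library turned 2 uncalled log2 changes: that of Axin2 in d6 against i10 parental ran from -0.05 (without replicate 2 of i10 parental) to 1.73, and that of Cdx2 in d6 against i7 parental from 0.00 (without replicate 1 of d6 parental, which leaves no count) to 7.45. Where no construction of the alternative shows it, the cause was not tested. With 2 libraries a group and 3 to 52 counts of Nkd1, 0 to 26 of Mixl1 and 0 to 110 of Cdx2, changes of these genes are poorly resolved.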
